A study of Homo sapiens with 6 samples.

Results

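The 10 genes described here encode the transcription factor NRF2 (NFE2L2), its inhibitor KEAP1, and enzymes of the quinone, glutathione and thioredoxin defences that NRF2 is known to control. They were chosen by symbol, with earlier results of these data known, and all 10 were found among the 16617 genes of the authors' deposited table. The samples are T3M4 cells, an established line of human pancreatic ductal adenocarcinoma, in 2 groups of 3 libraries each. One group received a guide RNA against METTL13 (sgMETTL13, called knockdown in the labels) and the other a control guide (sgControl, called WT in the labels). METTL13 methylates the translation elongation factor eEF1A, and the RNA profiles accompany protein measurements of such cells, which are not used here. Both groups grew in DMEM with fetal bovine serum, and the labels name no further agent and do not say whether either population is 1 clone or a pool.

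NRF2 is made continuously and is held at a low level by KEAP1, an adaptor that hands it to the CUL3-RBX1 ubiquitin ligase. Oxidants and electrophiles modify cysteines of KEAP1, NRF2 then accumulates without a need for more of its mRNA, pairs with a small MAF protein and binds antioxidant response elements in its target genes. The glutathione branch makes and recycles the main small thiol of the cell, and the thioredoxin branch passes electrons from NADPH to peroxiredoxins, which remove hydrogen peroxide. In pancreatic ductal adenocarcinoma NRF2 is known for keeping oxidant levels low.

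The sequences show where the core of the antioxidant response element, TGACNNNGC (GCNNNGTCA when it lies on the opposite strand), occurs near the starts of the genes that hold it. They come from RefSeq promoter windows of GRCh38.p14, which run from 250 bases before to 50 bases after a start. Capitals mark the core, with 10 bases on each side, and each sequence is written 5′ to 3′ on the strand of its gene. TXNRD1 encodes the reductase that recharges thioredoxin and had the largest fold change of the 10 genes, GCLM is a subunit of the enzyme that makes the glutathione precursor, and KEAP1 is the inhibitor of NRF2. Both KEAP1 sequences and the TXNRD1 sequence at the start at 104287032 lie wholly within exons of GENCODE 29. The window of the other KEAP1 start, at 10503356, held no match.
TXNRD1, 99 bases before the start at 104215779, chr12:104215670-104215698, plus strand: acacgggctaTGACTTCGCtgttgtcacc
TXNRD1, crossing the same start, chr12:104215761-104215789, plus strand: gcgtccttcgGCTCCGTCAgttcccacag
TXNRD1, 102 bases before the other start at 104287032, chr12:104286920-104286948, plus strand: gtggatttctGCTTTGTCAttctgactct
GCLM, 34 bases before the start at 93909430, chr1:93909446-93909474, minus strand: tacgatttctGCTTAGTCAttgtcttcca
KEAP1, 54 bases before the start at 10502771, chr19:10502807-10502835, minus strand: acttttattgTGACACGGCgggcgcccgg
KEAP1, 31 bases before the same start, chr19:10502784-10502812, minus strand: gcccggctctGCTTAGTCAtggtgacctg

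The 250 bases before the first start of TXNRD1, at chr12:104215529-104215778 on the plus strand, are shown whole because this gene leads the results and because no exon of GENCODE 29 covers them. Capitals again mark the core that lies fully inside this stretch.
TXNRD1: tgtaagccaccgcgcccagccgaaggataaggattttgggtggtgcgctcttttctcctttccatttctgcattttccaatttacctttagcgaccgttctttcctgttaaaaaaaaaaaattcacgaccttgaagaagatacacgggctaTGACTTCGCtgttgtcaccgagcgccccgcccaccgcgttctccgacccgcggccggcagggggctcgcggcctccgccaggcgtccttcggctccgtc

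Promoter windows were matched for 8 of the 10 genes, 11 windows in all; GSR and PRDX1 had none. The core was found in 4 of these 11 windows and in 3 of the 8 genes, TXNRD1, GCLM and KEAP1, and not in the windows of SRXN1, GCLC, NQO1, TXN or NFE2L2. Bases outside the windows were not searched, so these genes may hold the core elsewhere. Of all 35116 windows of the same length 13.3% hold the core. The share is 15.2% in windows of genes called higher by the authors and 13.7% in windows of genes called lower. Counted by gene, the core occurs for 16.1% of all genes with windows and for 18.7% of those that the authors' deposited table holds. A match is a match of letters, and no binding was measured.

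METTL13 itself went from an average of 39.9 TPM in sgControl to 5.63 TPM in the knockdown, and fell by 2.78 on the log2 scale according to the authors' deposited table (adjusted p = 2.5e-127). Only averages over libraries were at hand, so values per library are not analysed here and whether the groups overlap cannot be stated. The average estimated reads summed to 15240866 in sgControl and 15247500 in sgMETTL13. TPM, the transcript share of each library on a common total, is a level corrected for transcript length and is used to compare genes. The log2 fold change, sgMETTL13 over sgControl, is the authors' own estimate, with an adjusted p over all 16617 genes, and a gene is called where that adjusted p is under 0.05. Each 95% implied range, or interval, was computed from the deposited fold change and p on the assumption of a normal test. Nothing in the labels says that the libraries of a group came from separate cultures, so the p-values measure the spread between these libraries. The ductal keratins KRT8, KRT18 and KRT19 stood at 1308, 1053 and 2107 TPM in sgControl by the authors' deposited table, and all 8 ductal epithelial markers were above 50 TPM there; of these 8, KRT17 (0.20) was called higher and MUC1 (-0.46) lower. After removal of a trend of fold change with GC content and transcript length KRT17 was no longer called (0.099, Benjamini-Hochberg adjusted p = 0.499) and MUC1 was (-0.51, adjusted p = 0.00141). Of 20 markers of fibroblasts, leukocytes, endothelium, acinar cells and islets 12 were measured, none was called, and COL1A1 (14.0 TPM) and CD68 (40.9 TPM) were the 2 above 10 TPM in sgControl by the authors' deposited table. In bulk cultures fewer cells of one state and less RNA per cell cannot be told apart.

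TXNRD1 and the sulfiredoxin gene SRXN1 were called higher in the sgMETTL13 cells, 1.18-fold each by the authors' deposited table, and none of the 10 genes was called lower. Of all genes 2.73% were called higher and 1.08% lower. Genes with many reads are called more often. Among the 2892 genes whose mean reads lie in the range of these 10 genes, from 1059 to 10505, 10.3% were called higher, which is the closer background for 2 of 10. NFE2L2, KEAP1, NQO1, GCLC, GCLM, GSR, TXN and PRDX1 did not pass the test.

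**Figure D1:**
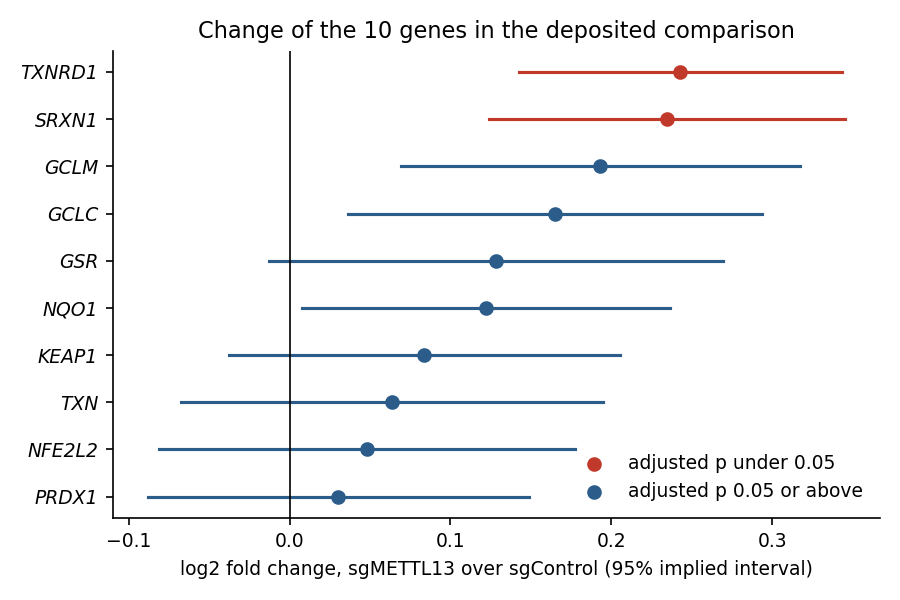
Authors' log2 fold change of each of the 10 genes, sgMETTL13 over sgControl, with the 95% interval implied by the deposited p (lines). TXNRD1 (0.24) and SRXN1 (0.23), in red, are called; the intervals of GCLM, GCLC and NQO1 lie above 0 but these genes do not pass the test over all genes.

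The transcripts of the regulator and its inhibitor were both close to their control levels. According to the authors' deposited table NFE2L2 averaged 76.3 TPM in sgControl and 74.9 TPM in sgMETTL13, from 1654 and 1649.7 estimated reads. The authors' deposited table gives it a log2 fold change of 0.048 (95% implied range from -0.081 to 0.18, adjusted p = 0.949). That interval runs from -5.49% to 13.1% on the linear scale. KEAP1 averaged 99.7 and 100.5 TPM by the authors' deposited table. Its log2 fold change was 0.084 by the authors' deposited table (95% implied range from -0.037 to 0.21, adjusted p = 0.720). Each of these intervals spans both a decrease and an increase, so neither a change nor an equal level was shown for these transcripts. NRF2 protein, the form that KEAP1 controls, was not measured in these libraries.

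NQO1 encodes the quinone reductase that is widely used as a readout of NRF2 activity. It averaged 165.9 TPM in sgControl and 171.6 TPM in sgMETTL13 by the authors' deposited table. A log2 fold change of 0.12 (95% implied range from 0.0077 to 0.24) came with an unadjusted p of 0.0364 and an adjusted p of 0.338 in the authors' deposited table, so NQO1 did not pass. The upper end of its interval is an increase of 17.8%.

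The genes of glutathione synthesis and recycling had values between those of the regulators and those of the called genes. GCLC, the catalytic subunit of glutamate-cysteine ligase, averaged 70.9 TPM in the control and 75.8 TPM in the knockdown cells by the authors' deposited table. Its log2 fold change of 0.17 was not called by the authors' deposited table (95% implied range from 0.036 to 0.29, adjusted p = 0.169). GCLM, the modifier subunit that raises the efficiency of the enzyme, averaged 47.3 and 51.3 TPM by the authors' deposited table. The log2 fold change of GCLM was 0.19 by the authors' deposited table, or 14.3% (95% implied range on the log2 scale from 0.069 to 0.32), and its adjusted p of 0.0560 missed the threshold narrowly. GCLM passed when the Benjamini-Hochberg adjustment was made over the 8309 genes with at least 205 mean reads, the median of the table (adjusted p = 0.0301), where 6.72% of genes were called higher. It also passed once a trend of fold change with GC content and transcript length was removed (0.22, Benjamini-Hochberg adjusted p = 0.0229). The estimated reads of GCLM are not whole numbers in either group, as when the counting program splits reads over several genes. GSR, the reductase that returns oxidised glutathione to its reduced form, had the lowest level of the 10 genes, with 42.5 and 44.2 TPM by the authors' deposited table. Its log2 fold change of 0.13 was not called by the authors' deposited table (95% implied range from -0.012 to 0.27, adjusted p = 0.493).

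Both called genes of the 10 belong to the thioredoxin branch, and a difference between the branches was not tested. By the authors' deposited table TXNRD1, a selenoprotein that moves electrons from NADPH to thioredoxin, averaged 9809 estimated reads in the control and 11200 in the knockdown cells, or 319 and 359 TPM. It rose by 0.24 on the log2 scale by the authors' deposited table, an increase of 18.3% (95% implied range from 10.4% to 26.9%, adjusted p = 0.000204). By the size of its adjusted p TXNRD1 ranked 173 among all genes. SRXN1 encodes sulfiredoxin, which repairs peroxiredoxins whose cysteine has been overoxidised. It averaged 2796 and 3175 estimated reads, or 137 and 153 TPM, by the authors' deposited table. SRXN1 rose by 0.23 on the log2 scale by the authors' deposited table, an increase of 17.7% (95% implied range from 8.98% to 27.0%, adjusted p = 0.00196). Exons of SRXN1 share 2292 bases in GENCODE 29 with AL121758.1, a protein-coding gene model on the same strand that is not analysed here. Reads in the shared bases cannot be assigned to 1 of these 2 models.

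The substrates of these enzymes had the highest levels of the 10 genes and were not called. TXN, the cytosolic thioredoxin that TXNRD1 recharges, averaged 996.3 and 990.8 TPM by the authors' deposited table. By the authors' deposited table its log2 fold change was 0.064 (95% implied range from -0.068 to 0.20, adjusted p = 0.890). PRDX1, a cytosolic peroxiredoxin that SRXN1 repairs, averaged 692 and 672 TPM by the authors' deposited table. For PRDX1 the authors' deposited table gives a log2 fold change of 0.030 (95% implied range from -0.088 to 0.15, adjusted p = 0.968), and an increase of 10.9% is the upper end of the interval. The differences in fold change between TXNRD1 and TXN, and between SRXN1 and PRDX1, were not tested. Their implied intervals overlap, which does not show that the fold changes are equal.

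**Figure D2:**
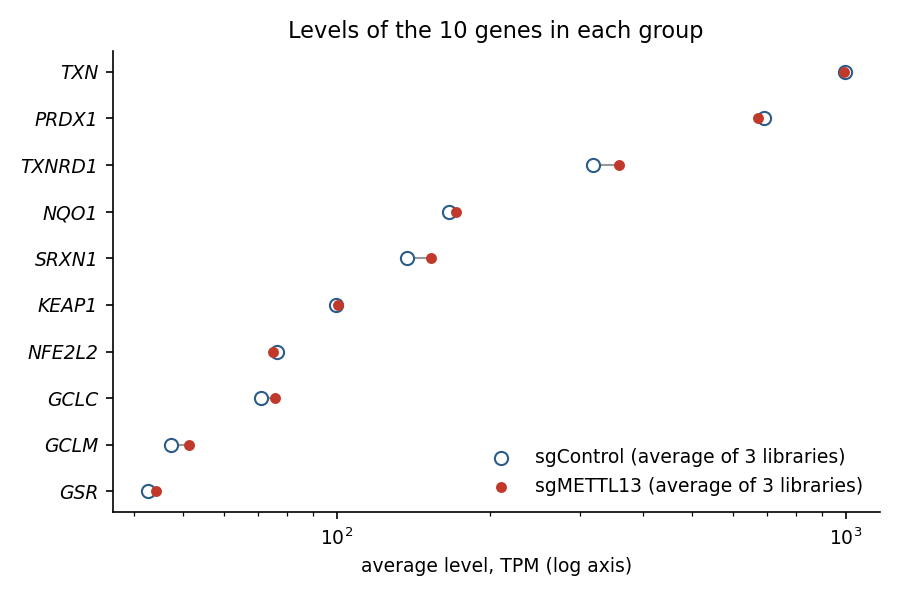
Average level of each of the 10 genes in TPM (log axis) in sgControl (open blue circles) and sgMETTL13 (red points), each the authors' average of 3 libraries. The levels run from GSR, at 42.5 TPM in sgControl, to TXN, at 996.3 TPM, and the groups lie close together at every gene.

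By level in sgControl the order of the 10 genes was TXN, PRDX1, TXNRD1, NQO1, SRXN1, KEAP1, NFE2L2, GCLC, GCLM and GSR. The order in sgMETTL13 was the same except that GCLC (75.8 TPM) stood above NFE2L2 (74.9 TPM) by the authors' deposited table. Without values per library the spread of a level is unknown, so neighbours as close as these cannot be separated. Within each group FPKM, the other length-corrected unit of the table, gave the same order as TPM. TXN stood at percentile 99.1 of all genes by TPM in sgControl and GSR at percentile 78.9. The implied standard errors of the 10 log2 fold changes ran from 0.051 for TXNRD1 to 0.072 for GSR.

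All 10 deposited log2 fold changes were above 0, with a median of 0.13, but 8 of 10 were above 0 as a ratio of average reads (NFE2L2 and PRDX1 were below), 7 as a ratio of average TPM (NFE2L2, TXN and PRDX1 were below) and 9 after removal of the GC and length trend (KEAP1 was below). Of all genes 50.2% had a deposited value above 0, and 64.5% of those in the range of mean reads of the 10 genes did. For genes with at least 205 mean reads the deposited fold change exceeds the log2 ratio of average reads by 0.052, which is the authors' scaling between groups. The median over those abundant genes was 0.011 as deposited, -0.041 as a ratio of average reads and -0.061 as a ratio of average TPM. TXNRD1, SRXN1, GCLM, GCLC, GSR and NQO1 were above 0 under all 4 measures in the plot of measures.

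**Figure D3:**
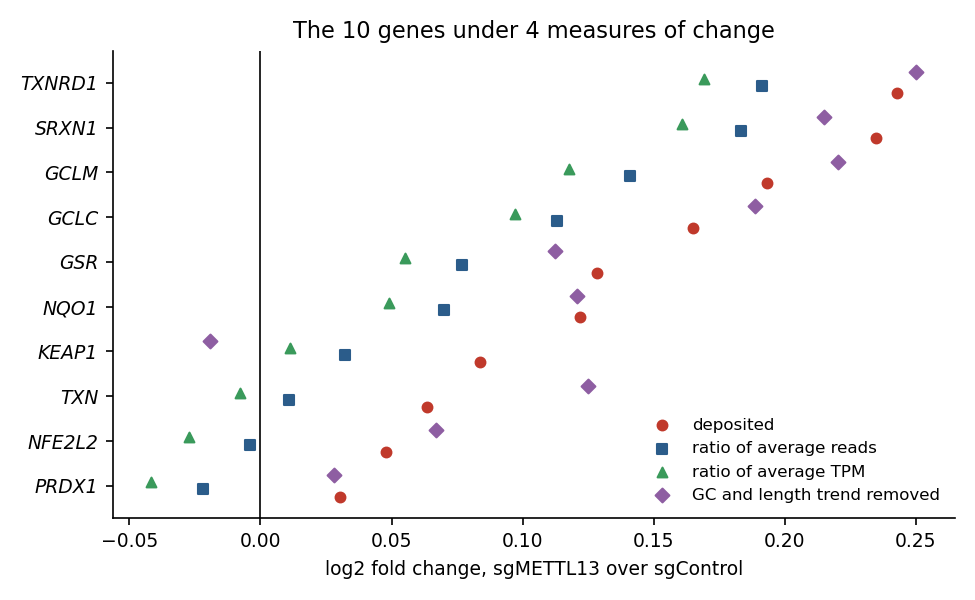
Log2 fold change of each of the 10 genes as deposited (red circles), as the ratio of average reads (blue squares), as the ratio of average TPM (green triangles) and with a trend in GC content and length removed (purple diamonds). TXNRD1 stays between 0.17 and 0.25, whereas NFE2L2, PRDX1, TXN and KEAP1 cross 0 under at least 1 of the measures.

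Of the 10 genes KEAP1 moved most when the trend was removed, from 0.084 to -0.019, and its transcripts had the highest median GC content, 62.1%. TXN, with the lowest GC content (35.6%), moved from 0.064 to 0.13. TXNRD1 (0.25, adjusted p = 0.000142) and SRXN1 (0.21, adjusted p = 0.00856) were still called by Benjamini-Hochberg adjustment after the removal, and GCLM joined them, beside a background of 1.6% of genes called higher and 1.18% lower.

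**Figure D4:**
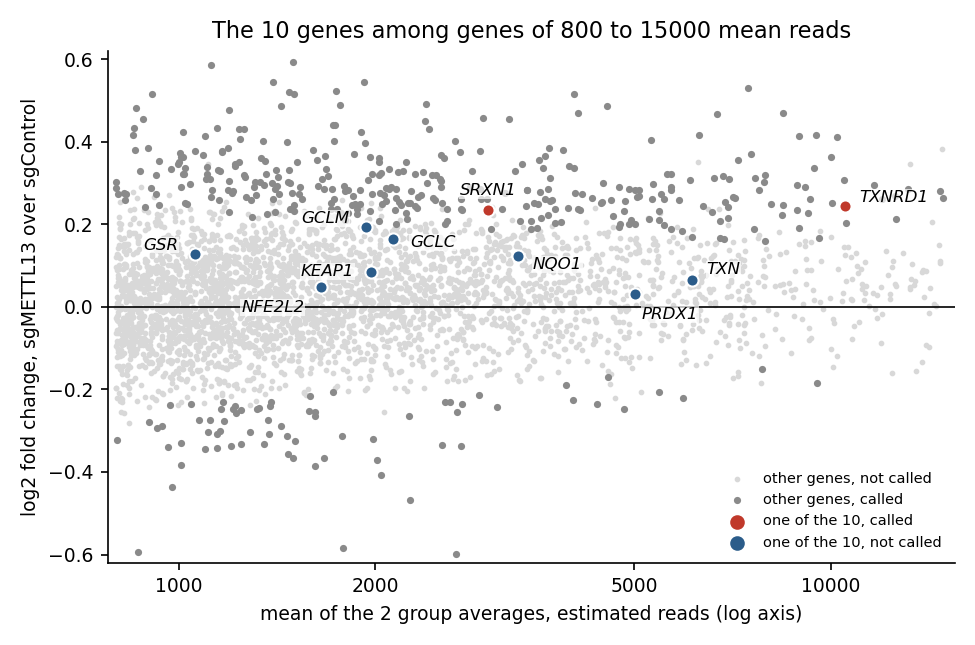
Log2 fold change against mean estimated reads (log axis) for genes of 800 to 15000 mean reads, with called genes in dark grey, other genes in light grey and the 10 genes in red (called) or blue (not called). TXNRD1 (0.24) and SRXN1 (0.23) lie among called genes, GCLM (0.19) lies just under them, and 17 genes beyond 0.6 in either direction are not drawn.

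Regulators and partners of NRF2 gave 3 genes called higher and 0 called lower of 18 measured (16.7%), with a median log2 fold change of 0.053. For this and the following lists the same values over all genes are 2.73% called higher and a median of 0.0014. Over genes with at least 205 mean reads they are 5.21% and 0.011, and 10.3% were called higher in the read range of the 10 genes. All these lists were chosen with earlier results of these data known. SQSTM1, the autophagy receptor p62 that sequesters KEAP1, rose from 1039 to 1175 TPM by the authors' deposited table, or by 0.25 on the log2 scale (adjusted p = 3.62e-06). MAFF and MAFG, small MAF proteins that pair with NRF2, rose by 0.40 and 0.25 according to the authors' deposited table (adjusted p = 0.000195 and 0.00458). After removal of the trend MAFG was no longer called (0.19, Benjamini-Hochberg adjusted p = 0.0861), while SQSTM1 and MAFF were. The ligase subunits CUL3 (0.0056) and RBX1 (0.14), named after their values were seen because they complete the KEAP1 complex, were not called by the authors' deposited table.

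Among 17 other genes of glutathione synthesis and turnover 2 were called higher (11.8%) and 0 lower, with a median log2 fold change of -0.011 that became -0.10 after removal of the trend. Both encode chains of the cystine importer, which supplies cysteine for glutathione. The light chain SLC7A11 went from 47.7 to 54.8 TPM and rose by 0.32 on the log2 scale by the authors' deposited table (adjusted p = 0.00245). The heavy chain SLC3A2, which other amino acid transporters also use, went from 817 to 900.3 TPM and rose by 0.21 on the log2 scale by the authors' deposited table (adjusted p = 0.0141). After removal of the trend SLC7A11 was called at 0.39 and SLC3A2 was not (0.17, Benjamini-Hochberg adjusted p = 0.121). CBS, which acts in the synthesis of cysteine from methionine, was not called by the authors' deposited table (-0.011).

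Among 28 measured genes of enzymes that use glutathione 2 were called higher and 0 lower, with a median of 0.045. That share of 7.14% is near the 5.21% of all genes with at least 205 mean reads and below the 10.3% in the read range of the 10 genes. The glutathione peroxidase genes GPX1 and GPX3 each rose by 0.28 on the log2 scale by the authors' deposited table (adjusted p = 0.000112 and 5.1e-05). GPX1 went from 378 to 438 TPM and GPX3 from 347 to 400.5 TPM by the authors' deposited table. After removal of the trend GPX1 was no longer called (0.18, Benjamini-Hochberg adjusted p = 0.0662). GSTP1, the most abundant glutathione transferase of the list, averaged 2963 and 3043 TPM and was not called by the authors' deposited table (0.11, adjusted p = 0.269).

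Of 21 other genes of the thioredoxin and peroxiredoxin system 2 were called higher and 0 lower, with a median of 0.084. That share of 9.52% is near the 10.3% called higher in the read range of the 10 genes. PRDX5, a peroxiredoxin of mitochondria, peroxisomes and cytosol, went from 846 to 982 TPM and rose by 0.28 on the log2 scale by the authors' deposited table (adjusted p = 1.9e-05). PRDX2, a close relative of PRDX1 in the cytosol, went from 604 to 656 TPM and rose by 0.19 by the authors' deposited table (adjusted p = 0.0137), but was not called after removal of the trend (0.12, Benjamini-Hochberg adjusted p = 0.312). PRDX6, which is reduced through glutathione and not thioredoxin, averaged 290.2 and 244 TPM and was not called by the authors' deposited table (-0.18, adjusted p = 0.0940).

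**Figure D5:**
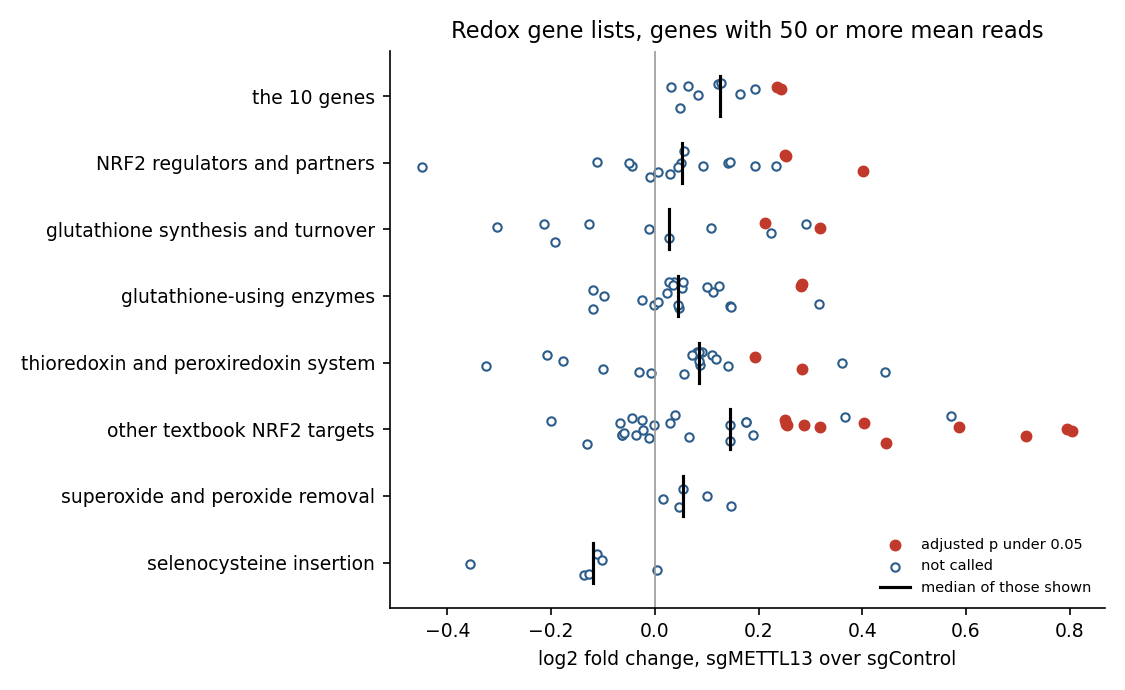
Log2 fold change by the authors' deposited table of the 10 genes and of 7 lists of related genes (1 point a gene, 50 or more mean reads; red called, open blue not called; black bars are medians of the points shown, and vertical scatter within a list has no meaning). The called genes shown all lie above 0, and the largest are in the list of other NRF2 targets.

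Among other textbook targets of NRF2 some called genes had larger values than TXNRD1 and SRXN1. In that list 11 of 36 measured genes were called higher (30.6%) and 0 lower, and 24 values were above 0. Of all genes in the read range of the 10 genes, 10.3% were called higher and 64.5% had values above 0. The median was 0.16, and 0.095 after removal of the trend, beside 0.13 and 0.12 for the 10 genes. The list was assembled with earlier results of these data known. It shares SLC7A11, MAFG and SQSTM1, which were called, and MGST1, GPX2 and GSTM3, which were not, with the lists above. By the authors' deposited table the 6 with the smallest adjusted p were the aldo-keto reductases AKR1C2 (0.80), AKR1C1 (0.79) and AKR1C3 (0.59), the heme oxygenase HMOX1 (0.72), the ferritin heavy chain FTH1 (0.40) and SQSTM1 (0.25). The AKR1C genes are near copies that share reads, so their separate values are uncertain. The difference of these values from those of TXNRD1 and SRXN1 was not tested. The remaining 25 targets were not called.

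Neither of the last lists held a call at an adjusted p under 0.05. Among 6 genes of superoxide and peroxide removal SOD2, SOD1 and PARK7 had values of 0.15, 0.10 and 0.017 by the authors' deposited table. Selenocysteine is the catalytic residue of TXNRD1, GPX1 and GPX3. Of the 7 genes for its insertion SECISBP2, SEPHS1 and SEPHS2 had values of -0.11, -0.14 and 0.0043 by the authors' deposited table, and the median of the list was -0.11.

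The 10 genes are all protein-coding in GENCODE 29 (GRCh38). TXNRD1 lies on chromosome 12 from 104215779 to 104350305 on the plus strand and SRXN1 on chromosome 20 from 646615 to 653370 on the minus strand. GCLM lies on chromosome 1 from 93885205 to 93909456, GCLC on chromosome 6 from 53497341 to 53616970, NFE2L2 on chromosome 2 from 177227595 to 177392697 and KEAP1 on chromosome 19 from 10486120 to 10503741, all on the minus strand. NQO1 lies on chromosome 16 from 69706996 to 69726951, TXN on chromosome 9 from 110243811 to 110256640, PRDX1 on chromosome 1 from 45511036 to 45523047 and GSR on chromosome 8 from 30678061 to 30727999, also on the minus strand. Exons of PRDX1 share 379 bases with MMACHC, and exons of NFE2L2 share 54 bases with AGPS, both on the opposite strand. NFE2L2, GCLC and NQO1 also share exon bases with non-coding gene models. No source used here states whether reads were counted by strand, so reads in those overlaps cannot be assigned to 1 gene.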

How the data were processed

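Libraries were made from TRIzol RNA, per the labels' protocols, and grouped by the guide in their titles. The submitters' processing notes list DESeq2, RSEM (1.2.12), HISAT2 (2.0.4) and Bowtie2 (2.2.5), and the builds hg38 and GRCh38.p12, without their roles. Per the file headers, the authors deposited average TPM, average FPKM, average read counts (estimated counts, as 21.4% of genes have averages that are not whole reads over 3 libraries, tolerance 0.005), a log2 fold change, and a p-value and q-value, here called the adjusted p. The design foresaw this case, and no count model was fitted because values per library are not analysed here.

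The implied standard error is the size of the log2 fold change over the normal quantile that matches the p-value. A trend in GC content and length (splines of 4 degrees of freedom, weighted by that error, 16211 genes, GENCODE 29 transcripts) was removed as an alternative chosen after seeing the data. The implied standard error, the Benjamini-Hochberg adjustment and the trend removal were tested on simulated data, and the other steps were not. Software was Python 3.11.15 (numpy 2.4.6, pandas 2.3.3), with scipy 1.17.1 for quantiles, patsy 1.0.2 for splines, and matplotlib 3.10.9 for plots.

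The members and lists were chosen with earlier results of these data known. Genes named are the 10 members, METTL13, the cell type markers, and in each list up to 6 called genes with the smallest adjusted p, filled to 3 by read count. The depth of single libraries is unknown. Other alternatives were other thresholds and adjustments, a filter at 205 mean reads, centring, and ratios of average reads, TPM and FPKM.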

Additional observations from a re-analysis of the deposited data

How the results depend on the processing

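No paired analysis was possible because the table holds group averages and the authors' comparison, with no value per library; for the same reason no library could be left out. TXNRD1 was called under every threshold and adjustment run. With a Bonferroni adjustment over all genes 1 of the 10 genes was called higher, since SRXN1 (0.23) had an adjusted p of 0.532. GCLM (0.19) was called at an adjusted p under 0.1 and among genes with at least 205 mean reads, and was called at 0.22 after removal of the GC and length trend. In that setting KEAP1 turned to -0.019; 1 gene each of the glutathione-using and of the thioredoxin and peroxiredoxin lists was called higher; and of the glutathione synthesis list 1 was higher and 1 lower, OPLAH (-0.43), named after its values were seen. In all, 4 of the 17 other redox genes called lost the call there (MAFG, SLC3A2, GPX1 and PRDX2). The ratio of average TPM gave NFE2L2 -0.027, KEAP1 0.011, NQO1 0.049, GCLC 0.097, GCLM 0.12, GSR 0.055, TXN -0.0079, TXNRD1 0.17, SRXN1 0.16 and PRDX1 -0.042. TXNRD1 was 0.19 by the ratio of average reads and by that of average FPKM. Centring changed none of these calls. The implied standard errors of 0.051 to 0.072 set the limit for these 10 genes; the median was 0.574 among genes under 205 mean reads.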
